A study of Mus musculus with 4 samples.

Results

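The transcripts described here are the 97 that peaked in spontaneously formed PCBs, as measured on 4 mouse arrays with 1 array per population. They were chosen by their measured values. For each curated RefSeq transcript the score was the log2 signal in sfPCBs minus the highest log2 signal among the other 3 arrays, and a transcript qualified when the scanner software called its signal well above background in sfPCBs on at least 0.5 of its spots. Of 20845 transcripts measured on all arrays, 16389 qualified. The 100 with the highest scores were taken and Lum, Cldn11 and Cdx2, which held ranks 4, 7 and 43, were left out by the rule. The 97 members carried 94 different gene symbols, since Ifi202b and Kcne3 had 2 member transcripts each and NM_009251 matched no symbol.

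The 4 populations were derived from mouse ESCs that differentiated without leukemia inhibitory factor. Flk1+MPC were mesodermal precursors carrying the VEGF receptor Flk1, at day 4.5. PCB were the PDGFRα+ Flk1- cardioblasts obtained at day 5.5 after Flk1+ MPCs had been cultured on OP9 stromal feeder cells with CsAYTE, a mixture of Cyclosporin A with Trolox, which is an antioxidant, and with Y27632 and EW7197, which inhibit ROCK and ALK5. sfPCB were cells of the same day that formed without CsAYTE, with the vehicle DMSO as control. M+CM were αMHC-positive cardiomyocytes at day 10.5, and their label did not say whether CsAYTE had been used. The paper describes M+CMs as cardiomyocytes that had differentiated from PCBs. The 4 arrays lay on 1 slide and no population had a second sample, so no test between populations was possible, every difference below is a description of these 4 arrays, and CsAYTE and differences between single cultures cannot be told apart.

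As background, a cell that leaves the Flk1+ mesoderm can take up a cardiac, an endothelial, a blood or a mural fate, and each fate is marked by its own transcription factors and surface receptors. ALK5 is the type I receptor through which TGF-β acts, and periostin and tenascin C are among the matrix genes known to respond to it. Hox genes record the position of mesoderm along the body axis. Because RNA was taken from whole populations, more cells of a type and more RNA per cell cannot be told apart anywhere below.

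Signals are given as scaled signals, which are arbitrary units after each array was brought to the same 75th percentile. The lowest scaled signal that the software called well above background was between 15.1 and 15.9 on the 4 arrays. For 4 members with 2 probes (Chl1, Cysltr1, Art4 and Paqr5), a mean lay below this floor on some arrays although 1 of the probes was detected, and such a mean is counted as detected. Where a comparison array was not well above background for a transcript, the fold was taken against that floor and is written as at least that size. The error beside a score is the software's estimate for the spots on both arrays, on the log2 scale, and covers spot and background noise but no difference between cultures.

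The labels rest on sorting by surface protein, whereas the arrays read RNA, and the RNA of the sorting markers fitted the labels only in part. Pdgfra, the receptor that defined both cardioblast populations, had a signal of 3647 in sfPCB, 9136 in PCB, 7237 in Flk1+MPC and 918 in M+CM. Kdr, which encodes Flk1, had a signal of 4719 in sfPCB, 942 in PCB, 47509 in Flk1+MPC and 2384 in M+CM. Its RNA was thus lower than in Flk1+MPC but well above background in both populations labelled Flk1-, and 5.01-fold higher in sfPCB than in PCB. The cardiac troponin gene Tnnt2 stood at 3176 in sfPCB against 145595 in PCB and 403180 in M+CM. Myh6, the cardiac α-myosin heavy chain, was at 43.5 in sfPCB, 6157 in PCB and 112738 in M+CM. Of 27 measured transcripts on a list of cardiac sarcomere and transcription factor genes, 20 were at least 4-fold lower in sfPCB than in PCB and none was a member. Gata1, an erythroid transcription factor, had a signal of 206 in sfPCB and 53.5 in PCB.

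The members had a median signal of 602 in sfPCB, 26.9 in PCB, 27.5 in Flk1+MPC and 16.2 in M+CM, whereas the 16389 qualifying transcripts had medians of 876, 860, 813 and 849 on the same arrays. The typical member was thus dim on the other arrays, although single members reached 2373 in PCB, 1805 in Flk1+MPC and 842 in M+CM. Of the 97, 61 were well above background in PCB, 59 in Flk1+MPC and 47 in M+CM, beside 96.6%, 95.4% and 95.4% of all qualifying transcripts. All 4 arrays detected 35 of them, and 21 were detected in sfPCB alone.

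Scores ran from 2.61 to 8.11 with a median of 3.10, which is an 8.58-fold difference from the second-brightest array. The median score of all qualifying transcripts was -0.54, and 18.4% of them were brightest in sfPCB. The 3 members just inside the limit were Icam2 with 2.63, Zfp711 with 2.61 and Tspan8 with 2.61, and the first 3 outside were Tlr12 with 2.59, Gpr182 with 2.58 and Pcdh20 with 2.58. Neighbours in this order differed by less than their errors of 0.204 to 1.25.

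With undetected signals set at the floor, 88 members were at least 4-fold above every other array, as were 0.824% of all qualifying transcripts. The other 9 (Adgrl4, Zscan4f, Bco1, Lyve1, Serpind1, Lect2, Kcnv2, Gimap5 and Lce1e) were so dim in sfPCB that the floor allowed only a lower bound under 4-fold. At least 30-fold differences from every other array were found for 9 members, against 0.0671% of qualifying transcripts. They were Postn, Megf10, one Ifi202b transcript, Pitx1, Eya2, Tdo2, Tmem204, Cd200 and Tek. Against PCB alone, 19 members were at least 30-fold higher (0.262% of qualifying transcripts). The corresponding numbers were 26 against Flk1+MPC (1.4%) and 34 against M+CM (1.43%). The rule used these same contrasts, so the counts describe the members and nothing is read from the difference to all transcripts.

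**Figure D1:**
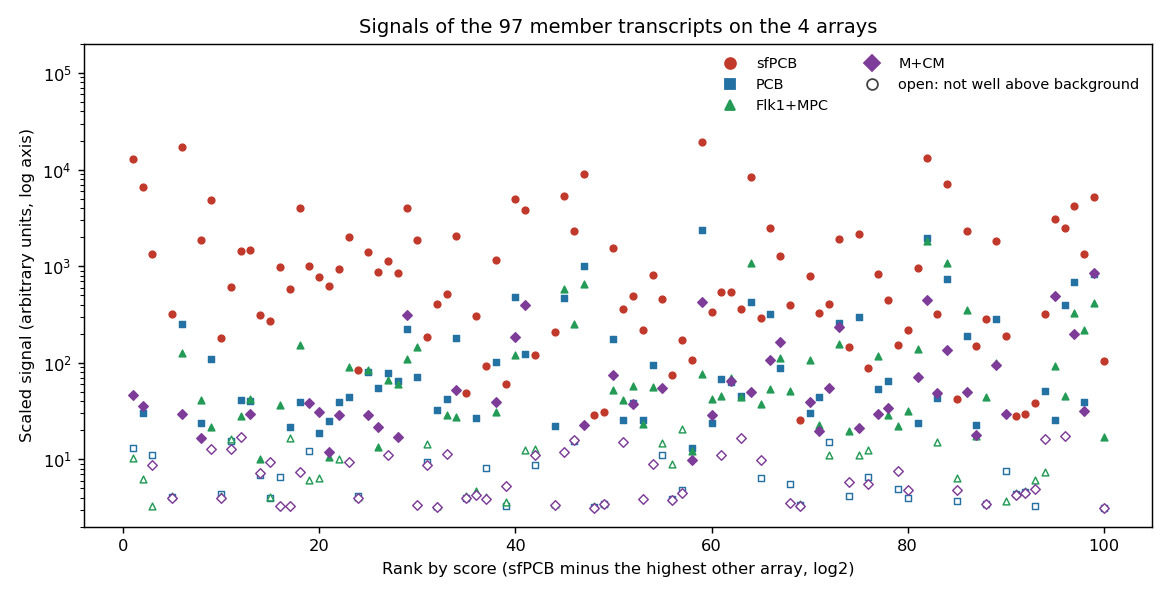
Scaled signal of each of the 97 members on the 4 arrays (vertical log axis) against rank by score (horizontal axis). Filled symbols are well above background and open symbols are not. sfPCB runs from 25.8 to 19138 and lies above the other 3 arrays for every member, and many of the other signals are open and lie below the floor of 15.1 to 15.9.

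The second-brightest array was PCB for 39 members, Flk1+MPC for 43 and M+CM for 15. Among all qualifying transcripts brightest in sfPCB the shares were 46.9%, 33.2% and 19.9%. Counting only second arrays that were well above background, PCB was second for 35 members, Flk1+MPC for 28 and M+CM for 13, so the order of PCB and Flk1+MPC depends on signals near the background. Of the 35 detected on all arrays, 7 lay within 2-fold on the 3 arrays other than sfPCB.

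The highest score belonged to Postn, which encodes periostin, a secreted matrix protein of fibroblasts and of the cardiac cushions. Its signal was 12883 in sfPCB, 46.6 in M+CM, 13.2 in PCB and 10.2 in Flk1+MPC, and the values in PCB and Flk1+MPC were not well above background. This is 277-fold over M+CM and at least 829-fold over PCB, with a score of 8.11 ± 0.24. Megf10, a transmembrane receptor for engulfment and for satellite cell growth, had a signal of 6575 in sfPCB, 30.2 in PCB, 6.31 in Flk1+MPC and 35.3 in M+CM, with a score of 7.54 ± 0.26. It was thus dim on all 3 other arrays.

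The promoter of Postn is shown because it belongs to the member with the highest score. RefSeq sequence was available for 59 of the 94 member genes, with 70 promoters. As fewer than 80% of the genes had an entry, shares of motifs or GC content over the members are void and are not given. The 250 bases before the second of the 2 Postn starts in the table (GRCm38.p6) carried TATAAA, beginning 26 bases before the start, in capitals. The 250 bases before the first start did not carry these letters. They were present anywhere on either strand in 12.4% of all 32851 promoters of that length. Near this position, 1.87% of the 16560 promoters of + strand genes carried TATAAA.
Postn, chr3:54360857-54361106 (+ strand): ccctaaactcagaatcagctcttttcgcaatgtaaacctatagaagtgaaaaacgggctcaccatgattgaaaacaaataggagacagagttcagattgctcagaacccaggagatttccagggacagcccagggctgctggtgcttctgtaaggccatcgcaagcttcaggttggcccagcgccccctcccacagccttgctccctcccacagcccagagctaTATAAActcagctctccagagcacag

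Further members encode matrix proteins or secreted factors. Dcn encodes decorin, a small proteoglycan that binds collagen, and had a signal of 3794 in sfPCB, 124 in PCB, 12.5 in Flk1+MPC and 393 in M+CM. Its second array was therefore the cardiomyocytes, 9.65-fold lower, while PCB was 30.7-fold lower. Tnc, the tenascin C gene, was at 326 in sfPCB, 43.9 in PCB, 22.6 in Flk1+MPC and 19.4 in M+CM. Adamts2, which trims procollagen, averaged 1547 in sfPCB and 178 in PCB over 2 probes, which differed widely, with 12844 and 186 in sfPCB. Spon2, a secreted spondin, reached 2063 in sfPCB and 178 in PCB. Colec11, a secreted collectin, was at 4018 in sfPCB, 221 in PCB, 111 in Flk1+MPC and 311 in M+CM. Olfml1 reached 937 in sfPCB and 39.6 in PCB.

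Postn and Tnc were the members on a list of 25 measured TGF-β response transcripts. On this list, 16 transcripts were brightest in sfPCB, 7 were at least 4-fold higher in sfPCB than in PCB and none was at least 4-fold lower. The median difference on the log2 scale was 1.47 from PCB, 3.85 from Flk1+MPC and 3.26 from M+CM. Postn, Col1a1, Col1a2 and Col3a1 are also on the list of OP9-type stromal genes described below. Whether the ALK5 inhibitor bears on these values was not tested. Over all 17919 transcripts detected on any array, 0.541% were members and 16.8% were brightest in sfPCB. Of the same transcripts, 2.27% were at least 4-fold higher and 1.59% at least 4-fold lower than in PCB. Their median difference was -0.02 from PCB, -0.18 from Flk1+MPC and -0.08 from M+CM. These shares also stand beside the counts of every other list and family below. Members were chosen for peaking in sfPCB, so in every list their part in such counts was largely fixed by that choice. On a list of 30 measured TGF-β and activin ligands, receptors and regulators, which had no member, 5 were at least 4-fold higher than in PCB and none lower. The median difference from PCB was 0.57.

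Postn and Dcn were also on a list of OP9-type stromal and preadipocyte genes, used as markers of the feeder cells on which cardioblasts grew. The summed signal of its 34 measured transcripts was 444642 in sfPCB, 286444 in PCB, 13981 in Flk1+MPC and 54171 in M+CM, so it was high in both populations of day 5.5. Of the 34, 32 were well above background in sfPCB and 33 in PCB, 6 were at least 4-fold higher in sfPCB, 4 at least 4-fold lower, and the median difference was 0.24. Among its adipocyte genes, Plin1 and Cfd were not well above background in sfPCB, whereas Fabp4 was at 7958, Pparg at 5255, Lpl at 3186, Cebpa at 348 and Adipoq at 24.9. In PCB these 5 were at 23663, 4613, 7360, 1679 and 254, so Pparg alone among them was higher in sfPCB. Col1a1 was at 58341 in sfPCB and 28385 in PCB. Lum, which the rule left out, was at 8782 in sfPCB, 30.2 in PCB, 3.35 in Flk1+MPC and 104 in M+CM. What feeder RNA contributed to the values of Postn and Dcn was not tested.

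**Figure D2:**
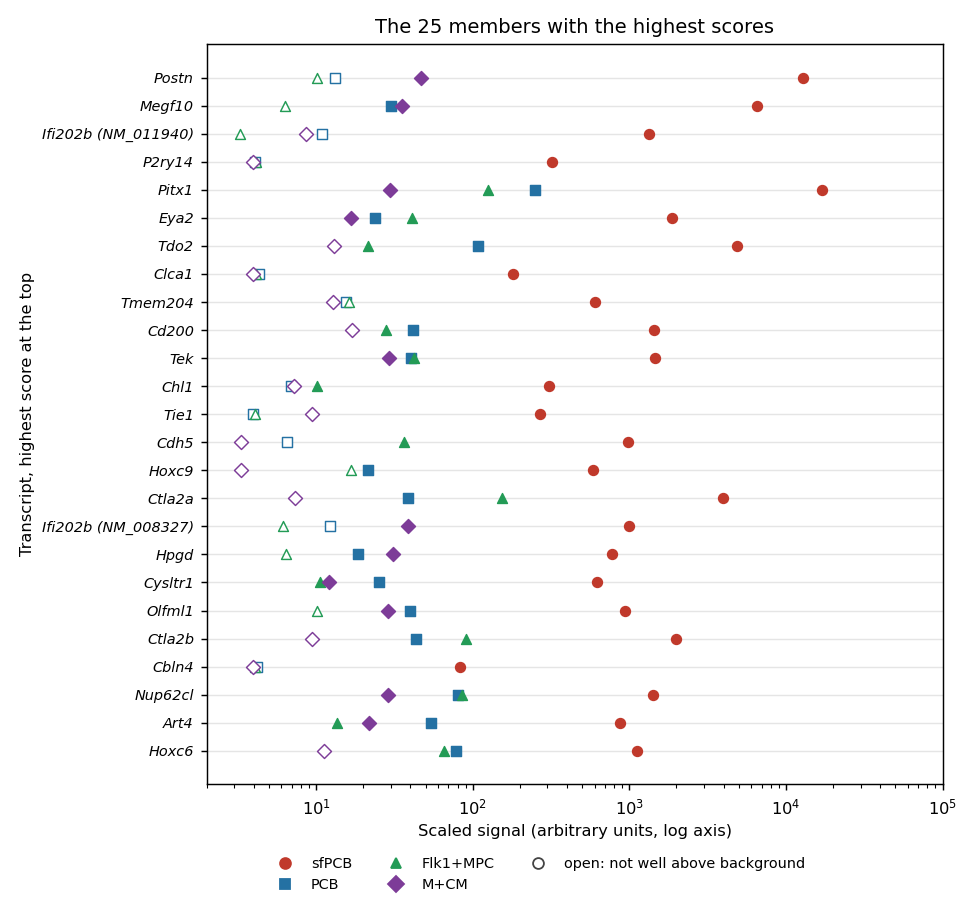
Scaled signal (horizontal log axis) of the 25 members with the highest scores (vertical axis, highest at the top) on the 4 arrays, with open symbols for signals not well above background. sfPCB lies to the right of all other arrays, from 83.2 for Cbln4 to 16979 for Pitx1, and the order of the other 3 arrays changes from gene to gene.

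The endothelial list held more members than any other list of marker or pathway genes. Of its 17 measured genes, 5 were members (Tek, Tie1, Cdh5, Cldn5 and Sox18), 10 were brightest in sfPCB, 14 were at least 4-fold higher in sfPCB than in PCB and none was at least 4-fold lower. The 5 members were chosen for peaking in sfPCB, so their part in these counts was fixed by that choice. The median difference from PCB was 3.82 on the log2 scale, or 3.73 with undetected signals at the floor, beside -0.02 over all transcripts. Against Flk1+MPC the median difference was 0.89. The summed signal of the list was 41546 in sfPCB, 14191 in PCB, 90930 in Flk1+MPC and 8338 in M+CM, and it was largest in Flk1+MPC, where Kdr makes up much of it.

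Tek, the Tie2 receptor for angiopoietins, had a signal of 1463 in sfPCB, 40.4 in PCB, 42.4 in Flk1+MPC and 29.4 in M+CM. It was detected on all arrays, and the 3 other signals lay close together, 34.5-fold or more below sfPCB (score 5.11 ± 0.24). Tie1, its partner receptor, was at 270 in sfPCB and at 3.96, 4.06 and 9.44 in PCB, Flk1+MPC and M+CM, none of which was well above background. This amounts to at least 16.9-fold. Cdh5, the VE-cadherin of endothelial junctions, was at 987 in sfPCB, 36.2 in Flk1+MPC and below background in PCB and M+CM, 27.3-fold above Flk1+MPC and at least 63.5-fold above PCB.

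Cldn5, the claudin of endothelial tight junctions, stood at 359 in sfPCB, 25.4 in PCB, 41.6 in Flk1+MPC and 15.2 in M+CM. Sox18, an endothelial and lymphatic transcription factor, was at 281 in sfPCB and 43.8 in Flk1+MPC, and was undetected in PCB and M+CM. For these 4 of the 5, with Tie1 as the exception, Flk1+MPC was the second array. Both receptors of the Tie family were thus dim in the Flk1+ precursors. Sox18 and Cldn5 held their places less well than Tek, Tie1 and Cdh5 when dim signals were treated in other ways, as given below.

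**Figure D3:**
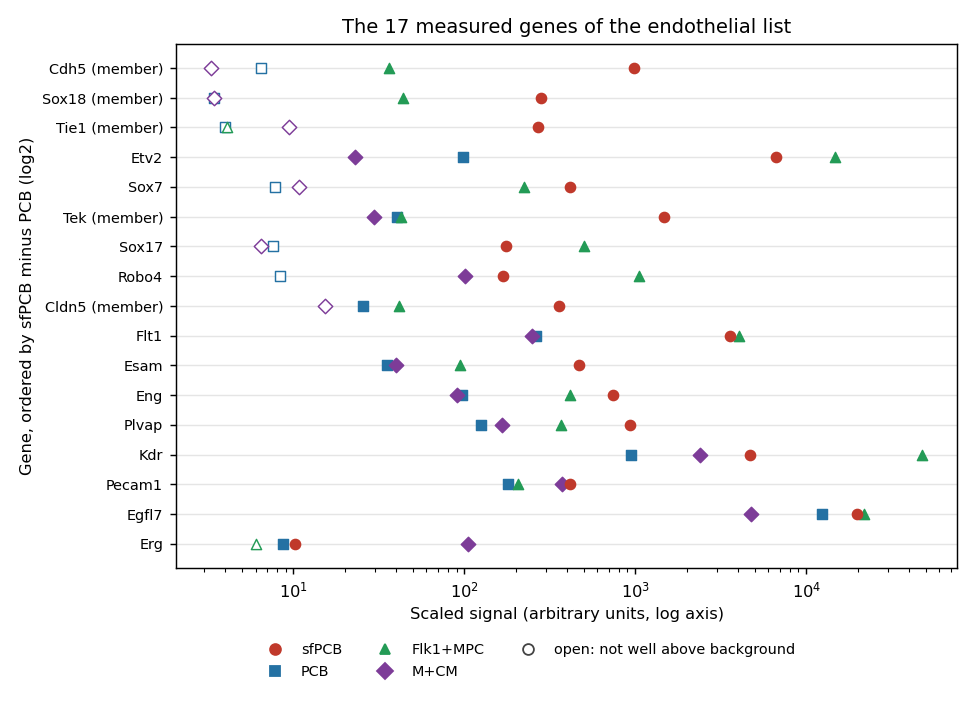
Scaled signal (horizontal log axis) of the 17 measured genes of the endothelial list (vertical axis, ordered by sfPCB minus PCB) on the 4 arrays, with members named as such and open symbols for signals not well above background. sfPCB lies to the right of PCB for all 17, by little for Erg and by most for Cdh5, and Flk1+MPC lies to the right of sfPCB for Kdr, Etv2, Robo4, Sox17, Flt1 and Egfl7.

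Other members with a known place in vessels were picked out after their values were seen. Fli1, an ETS transcription factor of endothelium and blood, had a signal of 1879 in sfPCB, 71.9 in PCB, 146 in Flk1+MPC and no detected signal in M+CM. Ecscr, an endothelial surface protein, was at 2303 in sfPCB, 187 in PCB, 356 in Flk1+MPC and 50.2 in M+CM. Rasip1, a Ras-interacting protein needed for vessel lumens, reached 951 in sfPCB, 24 in PCB, 140 in Flk1+MPC and 71.8 in M+CM. All 3 had Flk1+MPC as the second array.

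Icam2, an adhesion molecule of endothelium, was at 1339 in sfPCB, 39.2 in PCB, 217 in Flk1+MPC and 31.5 in M+CM. Cd34, a sialomucin of endothelium and blood progenitors, averaged 795 in sfPCB, 29.9 in PCB, 106 in Flk1+MPC and 39.0 in M+CM over 2 probes. These probes differed widely in brightness, with 7379 and 85.7 in sfPCB and scores of 4.14 and 1.67. Tmem204, a membrane protein of endothelium, was detected in sfPCB alone, at 602, at least 36.9-fold above the rest. Arap3, a GTPase-activating protein of vessels and lymphatics, was at 8390 in sfPCB, 430 in PCB and 1069 in Flk1+MPC. The scavenger receptor gene Stab1 was at 444 in sfPCB and 64.4 in PCB. Lyve1, a hyaluronan receptor of lymphatics, and Adgrl4, an adhesion receptor of endothelium, were near the floor even in sfPCB, at 31.0 and 48.1, which allows bounds of 1.95-fold and 3.02-fold only.

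Markers of blood were looked at beside them, since several of these genes are shared with blood. None of 18 measured transcripts on a primitive blood list was a member. Of these, 8 were brightest in sfPCB, 3 were at least 4-fold higher than in PCB, none was at least 4-fold lower, and the median difference from PCB was 0.44. On a list of 13 measured macrophage and other leukocyte transcripts, 1 was at least 4-fold higher, none lower, and none was a member.

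The promoters of 4 of these vessel genes are shown because they carry letters of a kind of site known from vessel genes. The capitals mark CAGGAA or its reverse complement TTCCTG, core letters of sites bound by ETS factors, which were chosen after the values were seen and occurred in 25.7% of all promoters of the table. Each sequence holds the 250 bases before a start, in the direction of the gene (GRCm38.p6). The letters began 89 and 59 bases before the start of Tek, 209 before that of Tie1, 194 and 141 before that of Cd34, and 90 and 65 before that of Rasip1. Stab1 and Adgrf5 held them too, and Cldn5 and Adgrl4, which were also in the table, did not. Members not described here as vessel genes held these letters as well, among them Colec11, Hpgd and Spin2c, so the letters are not particular to the vessel genes. Because the 4 promoters were picked for carrying them, they do not show how common the letters are among vessel genes. A match describes these letters only, and no binding was measured.
Tek, chr4:94739039-94739288 (+ strand): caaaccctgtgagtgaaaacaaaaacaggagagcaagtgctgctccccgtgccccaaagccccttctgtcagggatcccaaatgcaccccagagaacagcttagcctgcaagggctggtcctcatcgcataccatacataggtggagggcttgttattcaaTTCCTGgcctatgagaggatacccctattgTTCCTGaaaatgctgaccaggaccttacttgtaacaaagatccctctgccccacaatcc
Tie1, chr4:118489850-118490099 (- strand): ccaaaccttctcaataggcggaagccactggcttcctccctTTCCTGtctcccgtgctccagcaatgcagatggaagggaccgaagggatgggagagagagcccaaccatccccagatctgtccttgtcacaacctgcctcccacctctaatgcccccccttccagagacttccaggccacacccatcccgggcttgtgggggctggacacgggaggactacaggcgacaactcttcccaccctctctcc
Cd34, chr1:194938571-194938820 (+ strand): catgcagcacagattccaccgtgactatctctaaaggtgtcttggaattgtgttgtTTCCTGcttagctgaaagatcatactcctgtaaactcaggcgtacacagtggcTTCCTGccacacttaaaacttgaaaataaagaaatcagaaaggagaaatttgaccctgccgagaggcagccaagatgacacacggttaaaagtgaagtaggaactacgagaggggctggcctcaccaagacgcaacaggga
Rasip1, chr7:45627287-45627536 (+ strand): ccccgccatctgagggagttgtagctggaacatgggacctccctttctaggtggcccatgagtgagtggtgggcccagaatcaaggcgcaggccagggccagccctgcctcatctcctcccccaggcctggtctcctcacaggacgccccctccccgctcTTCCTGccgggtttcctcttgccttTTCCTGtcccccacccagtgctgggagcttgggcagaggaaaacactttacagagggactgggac

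Of the 35 measured Hox genes, 4 were members (Hoxc9, Hoxc6, Hoxb7 and Hoxa11). Hoxb7 and Hoxa11 left the highest scores when dim signals were treated in other ways, as given below. Hoxc9 had a signal of 585 in sfPCB, 21.6 in PCB, and no detected signal in Flk1+MPC or M+CM, and Hoxc6 of 1119 in sfPCB, 77.9 in PCB, 66.0 in Flk1+MPC and none detected in M+CM. They were 27.1-fold and 14.4-fold above PCB. Hoxb7 was at 218 in sfPCB, 25.7 in PCB and 23.4 in Flk1+MPC. Hoxa11, measured with 10 spots of 1 probe, was at 145 in sfPCB with an SD between spots of 0.13 on the log2 scale, 19.7 in Flk1+MPC and below background in PCB and M+CM.

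Across all 35, 19 were brightest in sfPCB, 11 were at least 4-fold higher than in PCB and none was at least 4-fold lower. At a limit of 2-fold, 16 were higher and 2 lower than in PCB. Their summed signal differed little between the populations of day 5.5, with 13310 in sfPCB, 11774 in PCB, 5909 in Flk1+MPC and 7523 in M+CM. The median difference from PCB was 1.49 on the log2 scale, which shrank to 0.65 with undetected signals at the floor. Cdx2, a homeobox regulator of Hox genes that the rule left out, was at 2195 in sfPCB, 16.7 in PCB and 233 in Flk1+MPC.

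**Figure D4:**
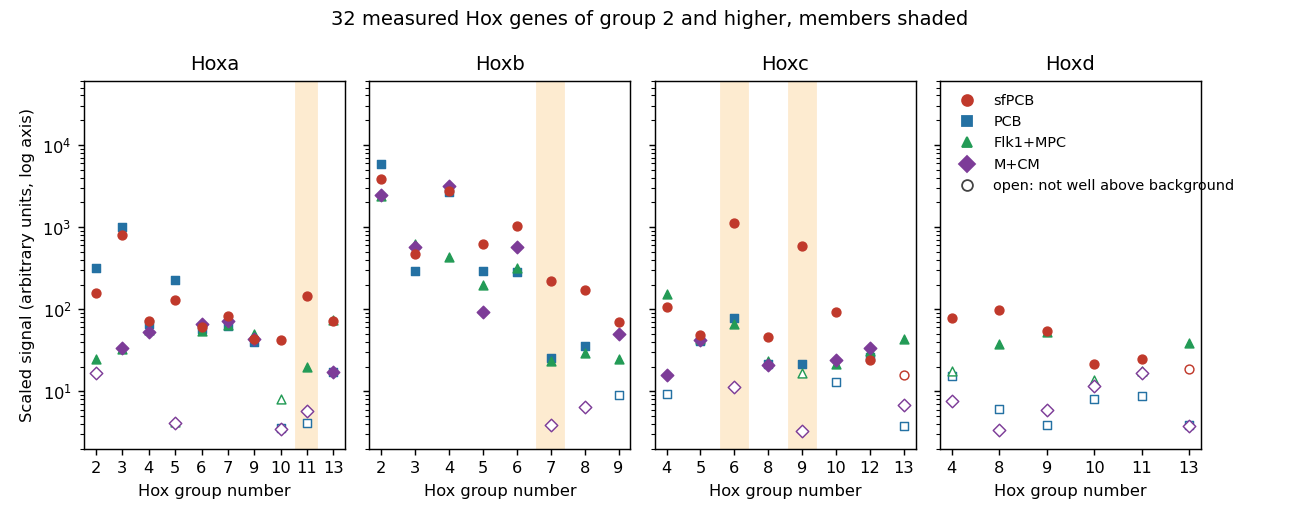
Scaled signal (vertical log axis) of the 32 measured Hox genes of group 2 and higher, by cluster and group number (horizontal axis) on the 4 arrays, with the 4 members shaded and open symbols for signals not well above background. Hoxc6 and Hoxc9 stand out with 1119 and 585 in sfPCB against 77.9 and 21.6 in PCB, whereas Hoxa2 and Hoxa3 have PCB above sfPCB, by 2.03-fold and 1.26-fold.

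Among the transcription factors, Pitx1 encodes a homeodomain factor of the hindlimb and of the posterior lateral plate, and had a signal of 16979 in sfPCB, 249 in PCB, 125 in Flk1+MPC and 29.5 in M+CM, 68.2-fold above the second array (score 6.09 ± 0.20). Eya2, a transcriptional coactivator and phosphatase of the sine oculis pathway, was at 1861 in sfPCB and between 16.6 and 41.0 on the other arrays. Sox3, a factor of early neural tissue, was at 2293 in sfPCB and 253 in Flk1+MPC and was undetected in PCB, which makes at least 147-fold over PCB. It was 1 of 23 measured neural and neural crest transcripts and the sole member among them, and 6 of the 23 were at least 4-fold higher than in PCB and 1 at least 4-fold lower.

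Heyl and Hes5, 2 targets of Notch signalling, were members from a list of 17 measured Notch transcripts, of which 6 were at least 4-fold higher in sfPCB than in PCB and 1 at least 4-fold lower. Heyl was at 456 in sfPCB and 54.5 in M+CM and undetected elsewhere, and Hes5 at 826 in sfPCB, 52.9 in PCB, 117 in Flk1+MPC and 29.4 in M+CM. The second arrays of these Notch targets therefore differed. Foxf2, a forkhead factor downstream of Hedgehog, was at 393 in sfPCB and 51.3 in Flk1+MPC and undetected in PCB. It was the member among 10 measured Hedgehog transcripts, of which 3 were at least 4-fold higher and none lower. Ldb2, a LIM domain binding cofactor, was at 854 in sfPCB and 64.5 in PCB, and Dmrt3, a doublesex-related factor, at 357 and 45.4. Zfp711, a zinc finger protein, was at 5157 in sfPCB, 822 in PCB, 413 in Flk1+MPC and 842 in M+CM.

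Tdo2, the tryptophan 2,3-dioxygenase, and Pitx1 were the 2 members among 32 measured lateral plate, intermediate and extraembryonic mesoderm transcripts, of which 7 were at least 4-fold higher in sfPCB than in PCB and 2 at least 4-fold lower. Tdo2 had a signal of 4888 in sfPCB, 109 in PCB, 21.5 in Flk1+MPC and none detected in M+CM. Plac1, a gene of the placenta, was at 5388 in sfPCB, 465 in PCB, 585 in Flk1+MPC and undetected in M+CM. It was the member among 17 measured trophoblast and placenta transcripts, 5 of which were at least 4-fold higher and none lower. No member was on the lists of paraxial mesoderm, primitive streak, endoderm, surface ectoderm, pluripotency, Wnt, BMP or retinoic acid genes, although 8 of 13 measured primitive streak transcripts were at least 4-fold higher in sfPCB than in PCB and 1 at least 4-fold lower. None of these 13 was brightest in sfPCB, and their median difference from Flk1+MPC was -5.06 on the log2 scale.

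G protein-coupled receptors outside the olfactory, vomeronasal and taste families were grouped by a pattern of gene symbols that does not take in Cysltr1. This family held 6 members among 167 measured transcripts (P2ry14, Adgrf5, Adgrl4, Gpr17, P2ry6 and Adra2c), and 12 transcripts of the family were at least 4-fold higher in sfPCB than in PCB and 2 at least 4-fold lower. P2ry14, a receptor for UDP-sugars, was at 319 in sfPCB and near 4 on all other arrays (4.07, 4.16 and 3.98), none detected. Its score of 6.26 carried an error of 1.45, and the floor allows at least 20.02-fold. Adra2c, an α2-adrenergic receptor, was at 3066 in sfPCB, 25.6 in PCB, 93.5 in Flk1+MPC and 492 in M+CM, 120-fold above PCB and 6.23-fold above the cardiomyocytes. Adgrf5, an adhesion receptor of vessels and lung, was at 516 in sfPCB and 41.8 in PCB. Gpr17 and P2ry6 were dim, at 121 and 152 in sfPCB. Cysltr1, also a G protein-coupled receptor, for cysteinyl leukotrienes, was at 618 in sfPCB, 25.2 in PCB, 10.7 in Flk1+MPC and 12.03 in M+CM, and its 2 probes gave scores of 4.58 and 4.65.

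Other surface proteins followed. Cd200, an immunoglobulin-like ligand that restrains myeloid cells, had a signal of 1444 in sfPCB, 41.3 in PCB, 28.1 in Flk1+MPC and none detected in M+CM, 34.96-fold above PCB. Chl1, a neural cell adhesion molecule, was at 309 in sfPCB and at most 10.1 elsewhere. Il1rl1, the receptor for interleukin-33, was at 410 in sfPCB and 32.4 in PCB and undetected in Flk1+MPC and M+CM. Cdh3, the P-cadherin, was detected on all arrays, at 4204 in sfPCB, 681 in PCB, 327 in Flk1+MPC and 197 in M+CM. Fat4, an atypical cadherin of planar polarity, was at 1272 in sfPCB and between 87.2 and 165 elsewhere. Steap1, of a family that includes metalloreductases, was at 7038 in sfPCB, 742 in PCB, 1073 in Flk1+MPC and 136 in M+CM.

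Signalling regulators and ligands were few. Rgs5, a G protein regulator that marks pericytes, was at 9110 in sfPCB, 1014 in PCB, 660 in Flk1+MPC and 22.4 in M+CM, so it was among the members that were readily detected in both other early populations. Prkg2, a cGMP-dependent kinase, was at 1842 in sfPCB and 287 in PCB. Rprm, a p53-induced cell cycle inhibitor, had a signal of 19138 in sfPCB, 2373 in PCB, 75.8 in Flk1+MPC and 425 in M+CM. Alkal2, a ligand of the ALK receptor, was at 307 in sfPCB and 26.9 in PCB, and the metabolic hormone gene Fgf21 at 206 and 21.9, and both were undetected in Flk1+MPC and M+CM. Pnoc, the precursor of nociceptin, was at 410 in sfPCB and 55.2 in M+CM.

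Among enzymes and carriers, Hpgd, which inactivates prostaglandins, was at 776 in sfPCB, 18.6 in PCB and 30.8 in M+CM, and Hsd11b2, which inactivates glucocorticoids, was at 801 in sfPCB and 94.8 in PCB. Slco4a1, an organic anion transporter, was at 4997 in sfPCB, 475 in PCB, 121 in Flk1+MPC and 186 in M+CM, and the anion exchanger gene Slc26a4 at 545 in sfPCB and between 62.8 and 69.1 elsewhere. Both carriers were among 347 measured solute carriers, of which 6 (1.73%) were at least 4-fold higher and 10 (2.88%) at least 4-fold lower than in PCB. Members made up 0.576% of this family, close to the 0.541% over all transcripts, so their number says nothing about carriers as a family. The potassium channel subunit gene Kcne3 was seen by its 2 transcripts at 337 and 290 in sfPCB, 8.06-fold and 7.73-fold above Flk1+MPC, the second array for both. Trf, the transferrin gene, was at 491 in sfPCB and between 37.5 and 57.2 elsewhere. Art4, the Dombrock blood group gene, averaged 868 in sfPCB and 54.4 in PCB over 2 probes, which read 4185 and 180 in sfPCB.

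Gene families whose members are near-identical need care, since probes may not tell them apart. Ctla2a and Ctla2b, similar cysteine protease inhibitors, had signals of 3989 and 1986 in sfPCB, 38.9 and 43.7 in PCB, 154 and 90.6 in Flk1+MPC, and no detected signal in M+CM. The 2 Ifi202b transcripts, of an interferon-inducible family of DNA sensors, were at 1326 and 994 in sfPCB and at most 38.7 elsewhere. A list of 23 measured interferon-stimulated transcripts held no member, and none of them was at least 4-fold higher or lower in sfPCB than in PCB. The list was high in both populations of day 5.5, with a summed signal of 333838 in sfPCB, 332589 in PCB, 16913 in Flk1+MPC and 15807 in M+CM. Of the 23, 11 were brightest in sfPCB. Zscan4f, a zinc finger gene of early embryos with several copies, was at 60.1 in sfPCB and undetected elsewhere, at least 3.77-fold.

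In gene order on GRCm38.p6, 9 pairs of member genes lay within 10 protein-coding genes of each other. The same count was not made for other sets of genes, so whether members lie closer together than other genes was not tested. Gimap1 and Gimap5, GTPases of the immune-associated family, were adjacent, but had signals of only 74.98 and 29.8 in sfPCB. A single gene lay between Ctla2a and Ctla2b, between Hoxc6 and Hoxc9, and between Kctd12b and Spin2c, and there were 2 between Fgf21 and Rasip1. Kctd12b was at 2176 in sfPCB, 296 in PCB and undetected in Flk1+MPC, and Spin2c at 13185 in sfPCB, 1961 in PCB and 1805 in Flk1+MPC. Of the 96 members with a gene, 8 lay on the X chromosome (8.33%, beside 3.66% of 16176 qualifying transcripts with a gene), namely 3830417A13Rik, Cysltr1, Kctd12b, Nup62cl, Plac1, Sox3, Spin2c and Zfp711. Among them, Kctd12b with Spin2c and Sox3 with 3830417A13Rik, are pairs of neighbours.

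The members not yet given were mostly of intermediate or low signal. Clca1, a secreted regulator of chloride channels, was at 181 in sfPCB and between 3.98 and 4.34 elsewhere, none detected, so its score of 5.38 had an error of 1.36 and the floor allows at least 11.4-fold. Nup62cl, a nucleoporin-like gene, was at 1406 in sfPCB and between 28.6 and 85.1 elsewhere. The gene 3830417A13Rik was at 1154 in sfPCB and 102 in PCB, and 2610528A11Rik at 1895 and 257. Oit3 was at 537 in sfPCB and 68.1 in PCB, the protease-like gene Prss35 at 322 and 51.6, and Gm266 at 148 and 22.8. All 5 of these genes had PCB as the second array. Rab27b, a GTPase of vesicle release, was at 319 in sfPCB and 48.7 in M+CM. Samsn1, an adaptor of lymphocytes, was at 171 in sfPCB and detected nowhere else, Paqr5, a membrane progestin receptor, at 107 with 13.2 in PCB, and Pon1, a paraoxonase, at 217 with 31.8 in Flk1+MPC. Tspan8, a tetraspanin, was at 104 in sfPCB and 17.02 in Flk1+MPC. NM_009251 was at 187 in sfPCB and 29.5 in M+CM and undetected in PCB and Flk1+MPC.

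The members spanned a wide range of brightness. In sfPCB, 37 had a signal of 1000 or more, 47 between 100 and 1000, and 13 under 100. For 22 members the difference from the limiting array is a bound and for 75 it was measured. The median error of the score was 0.845 among the former and 0.21 among the latter. The 13 dimmest were Cbln4, Adgrl4, Gm13043, Zscan4f, Bco1, Lyve1, Gimap1, Serpind1, Lrrc55, Lect2, Kcnv2, Gimap5 and Lce1e. Serpind1, heparin cofactor II, was the lowest at 25.8 in sfPCB, with 3.34, 3.41 and 3.30 on the other arrays. Its score of 2.92 had an error of 1.46 and its bound was 1.62-fold, so it belongs to the set on the strength of values close to the background. Of the 97, 2 had a score under 2 errors, Kcnv2 and Gimap5. The same care applies to the retinal-forming oxygenase gene Bco1 at 28.8 in sfPCB and to the chemotactic factor gene Lect2 at 42.0.

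Repeated measurements on the same arrays were available for some members. For 13 members with more than 1 probe, all 27 probes were brightest in sfPCB and every probe score exceeded 1. These probes made up the means by which the rule chose the members. Their agreement is therefore in part fixed by that choice and is a description only. A single probe spotted 10 times measured Synpo, Hoxa11, P2ry6 and Pon1, with SDs between spots in sfPCB of 0.073, 0.13, 0.17 and 0.15 on the log2 scale. Over all repeated probes the median SD was 0.096 in sfPCB and 0.054 to 0.056 on the other arrays. Anxa8, an annexin, had a probe spotted 10 times at 2882 in sfPCB and 445 in PCB and a second probe at 558 and 133, with scores of 2.70 and 2.07. The probes of Ccm2l, a gene of the heart and vessel wall, gave scores between 2.84 and 4.14.

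Other transcripts of 3 member genes were on the arrays but were not chosen by the rule. The second transcript of Il1rl1 had a signal of 59.1 in sfPCB, 13.6 in PCB, 8.27 in Flk1+MPC and 10.8 in M+CM, with a score of 2.12 beside 3.66 for the member. That of Arap3 was at 475 in sfPCB, 61.7 in PCB, 149 in Flk1+MPC and 89.7 in M+CM, with a score of 1.67 beside 2.97. Both were brightest in sfPCB by less than the member was. Synpo, which encodes the actin-binding protein synaptopodin, went the other way. The member was at 2457 in sfPCB, 319 in PCB, 53.9 in Flk1+MPC and 106 in M+CM, whereas its second transcript was at 446 in sfPCB, 267 in PCB, 340 in Flk1+MPC and 1926 in M+CM, brightest in the cardiomyocytes with a score of -2.11. These probes share a gene, and which isoforms each one reads was not tested.

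Dim members depended on how signals near the background were treated. With an offset of 50 added before the log2, 69 of the 97 stayed among the highest scores and 28 left. The 28 had a median sfPCB signal of 105 and none exceeded 322, while the 69 had a median of 1272. All 13 members under 100 were among those that left. With normexp background correction, which adds the same offset, 63 stayed and all of these also stayed with the offset. Of the 25 highest scores, 24 stayed with the offset, all but Cbln4, and 23 with normexp. Among the Hox and endothelial list members, Hoxb7, Hoxa11 and Sox18 left with both treatments, and Cldn5 left with normexp alone.

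**Figure D5:**
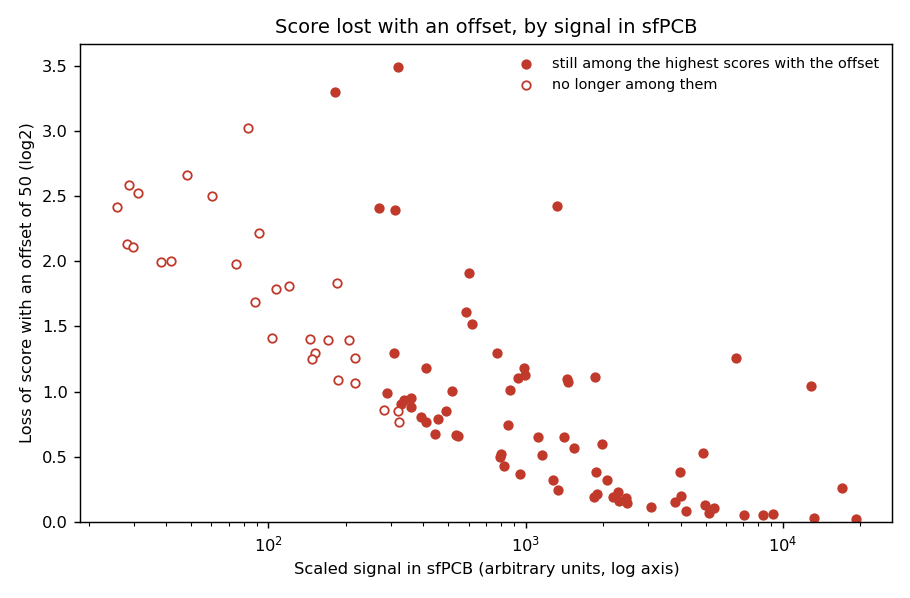
Loss of score on the log2 scale when 50 was added to each scaled signal (vertical axis) against the scaled signal in sfPCB (horizontal log axis), 1 point per member. The 28 open points, which left the highest scores, all lie at or below a signal of 322, and the 13 members under a signal of 100 are all among them.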

How the data were processed

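RNA of 4 mouse cell populations was measured on 1-colour Agilent arrays, 1 per population, and each array was assigned to its population from its title. Per the file headers, the authors quantified each scan with Feature Extraction 11.5.1.1, and the deposited intensities are its background-subtracted processed signals, with errors and quality flags and no scaling between arrays. A deposited table of log2 signals per probe matched the log2 of these processed signals without scaling. The array headers name mm9 and the reference is of GRCm38.p6, so probes were not matched to the reference by coordinates. The reference served for symbols, gene order and promoters, and the promoter coordinates shown are those of GRCm38.p6.

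Control spots and flagged spots (87 to 144 per array) were left out, processed signals were multiplied by 0.867 to 1.12 to bring the 75th percentiles (1970 to 2536) to their mean of 2198, and log2 values were averaged per transcript identifier. Between 73.3% and 76.2% of the 43020 spots of an array were well above background. No spot was saturated. Precision is limited by the number of arrays, and no test between populations was run. RefSeq identifiers were matched to symbols for 20502 of 20845 transcripts. Sequences of proteins were not analysed here.

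The members, the gene lists and the families were chosen with earlier results of these data known. Genes were named by rule as the 25 highest scores, members on a list or in a family, the last 3 members, the first 3 transcripts outside and the population checks, and the 38 other members were named after their values were seen. Lists are described by counts and medians beside all 17919 transcripts well above background on any array. The selection was tested on simulated data in which every transcript counted as detected and effects were added to brighter transcripts only. That simulation covered neither the detection rule nor the dim members. Alternatives were no scaling, quantile normalization, normexp (offset of 50) with quantile normalization, an offset of 50, saturated spots left out, flagged spots kept, stricter detection, the brightest probe, a percentile over detected spots and the deposited log2 table. Normexp used median spot signals, as chosen after the columns were seen. Python 3.11.15, numpy 2.4.6, pandas 2.3.3, matplotlib 3.10.9, R 4.3.3 and limma 3.58.1 were used.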

Additional observations from a re-analysis of the deposited data

How the results depend on the processing

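Under the 10 alternatives sfPCB was the brightest array for all 97 transcripts, which the size of their scores already fixed for scaling and the offset. Redoing the selection kept between 90 and 97 of them under the alternatives that change neither offset nor background correction, 69 with an offset of 50, and 63 with normexp and quantile normalization. With the offset, 66 members were at least 4-fold above every other array and 7 at least 30-fold above PCB, beside 88 and 19, and the median score was 2.49. With normexp these numbers were 58, 6 and 2.30. The median score was 3.35 without scaling and with the deposited log2 table, beside 3.10, and the same settings moved the median difference between sfPCB and Flk1+MPC over all qualifying transcripts from -0.14 to 0.19. The members lost with the offset and with normexp were the dim ones, with median sfPCB signals of 105 and 146 beside 1272 and 1406 among those kept. Of the scores of the members, of the first 3 transcripts outside and of the population checks, none changed sign under any alternative. The other counts stayed within 1.5-fold. Dropping saturated spots changed nothing, as no spot was saturated.

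For 22 members the array that limits the score was not well above background, so their folds are bounds, and the means of Chl1, Cysltr1, Art4 and Paqr5 rest in part on an undetected probe. No paired analysis was possible because each population had 1 array. Spread between cultures had no estimate, and the arrays cannot show whether a difference would recur.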
